A study of Mus musculus with 6 samples.

Results

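The genes described here are those of the circadian clock, the loop of transcription factors that gives cells a daily rhythm, in cultured mouse retinal pigment epithelium (RPE) after a meal of photoreceptor outer segments (POS). They were chosen by name, as 10 clock genes of the deposited table (Per1, Per2, Per3, Cry1, Cry2, Nr1d1, Nr1d2, Arntl, Hlf and Bhlhe40), at a time when their values in this same comparison were known. Of the 10, 9 were among the 12556 genes of the table, and Arntl was not analysed here. Because the challenged and unchallenged values were in view when the genes were picked, the differences below are descriptions, and no p-value is printed for a single member. Counts and names of members past a threshold are likewise descriptions.

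RPE cells of C57BL/6J mice, taken at 10 to 12 days of age, were kept for 5 to 6 days as primary cultures on porous supports. Challenged cultures were given mouse POS at about 10 per cell for 1.5 h, then washed and collected. Unchallenged cultures, titled Veh in the labels, had no POS, and both groups had 3 libraries from separate biological replicates. The sources used here give neither the hour of feeding and collection nor whether the cultures were synchronized.

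In the clock of mammals, the activators CLOCK and ARNTL (also called BMAL1) bind E-box elements and switch on the Per, Cry and Nr1d genes. PER and CRY proteins then return to the nucleus and block CLOCK and ARNTL, while the nuclear receptors encoded by Nr1d1 and Nr1d2 (REV-ERB alpha and beta) repress Arntl. In the eye, RPE cells engulf shed outer segment tips in a daily burst soon after light onset, and RPE tissue holds a clock of its own. Per1 and Per2 are also known as genes that outside signals, such as cAMP or glucocorticoids, can induce within hours.

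Libraries held 24869273 to 30420028 reads over the table, recovered from the scaled values. Levels are normalized read counts, the authors' reads divided by a size factor for each library, and groups are given as mean ± SD. Fold changes are challenged over unchallenged on the log2(value + 1) scale with the standard error (SE) from limma, and they understate the change of low genes. A call is an adjusted p under 0.05. The RPE label was checked on 12 markers, of which 11 were present, with a summed level of 33508 to 45785 unchallenged and 30967 to 51174 challenged. Tyr was the largest part of that sum, at 15831 to 26214 per library, while Rpe65 stood at 102.6 to 206.8 and Lrat at 20.9 to 108.8. The sum therefore says little of the low markers. Best1 was not analysed here. Unchallenged replicates 1 and 3 stood apart in 6 interferon genes, summed at 30394 and 38103 against 1640 in unchallenged replicate 2, and at 1322, 1682 and 5773 in challenged replicates 1, 2 and 3. Of 12 rod markers, 2 (Sag and Cdhr1) were present, summed at 109 to 153 unchallenged and 926 to 1538 challenged. The other 10 rod markers and all 6 cone markers were not analysed here. Markers of macrophages (5 of 6 present) were summed at 1158 to 1302 and 959 to 1285, and those of fibroblasts (5 of 5) at 62011 to 86568 and 55672 to 72092. The fibroblast sum was above the RPE sum in every library, and Col1a1 was its largest part, at 30666 to 50182. Within that sum, Pdgfra stood at 710.0 to 1058 unchallenged and 1199 to 2154 challenged, and Dcn at 481.3 to 1878 and 443.2 to 501.9. Markers of melanocytes (3 of 3) were summed at 1565 to 2169 and 1360 to 2441, and those of endothelium (2 of 4) at 106 to 185 and 138 to 178. Those of Müller glia (3 of 5) were summed at 15371 to 19476 and 14714 to 21298, with Glul alone at 10306 to 14864 per library. The part of these cells and of RNA brought in with the POS in the clock gene values was not tested, and fewer cells of a type cannot be told apart from less RNA per cell.

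Among the 9 clock genes, Per2 and Hlf stood farthest above their unchallenged level in challenged cultures, at about 2.29 and 1.88 times the unchallenged mean. Nr1d1 and Per3 stood above it by less, Bhlhe40, Cry2 and Per1 below it, and Cry1 and Nr1d2 near it. In limma 0 of the 9 were called (0.0956% of all genes were), and the edgeR quasi-likelihood test called 0 as well. At an unadjusted p under 0.05 stood 7 of the 9 in limma, against 11.5% of all genes. Per2 and Hlf are listed as higher in the authors' deposited table (0.871% of genes with an adjusted p there are), and Bhlhe40 as lower (1.68%). A DESeq2 run on the recovered reads called the same 3. In 4 of the 9 all challenged libraries lay above all unchallenged ones (9.56% of all genes), and in 2 they lay below (10.4%). Since the members were picked with this contrast in view, nothing is read from these counts. The median log2 fold change of the 9 was 0.10, beside 0.007 over all genes. Of the 9, 6 were above 0 (51.7% of all genes were), among them Cry1 at 0.004, and 3 were below.

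**Figure D1:**
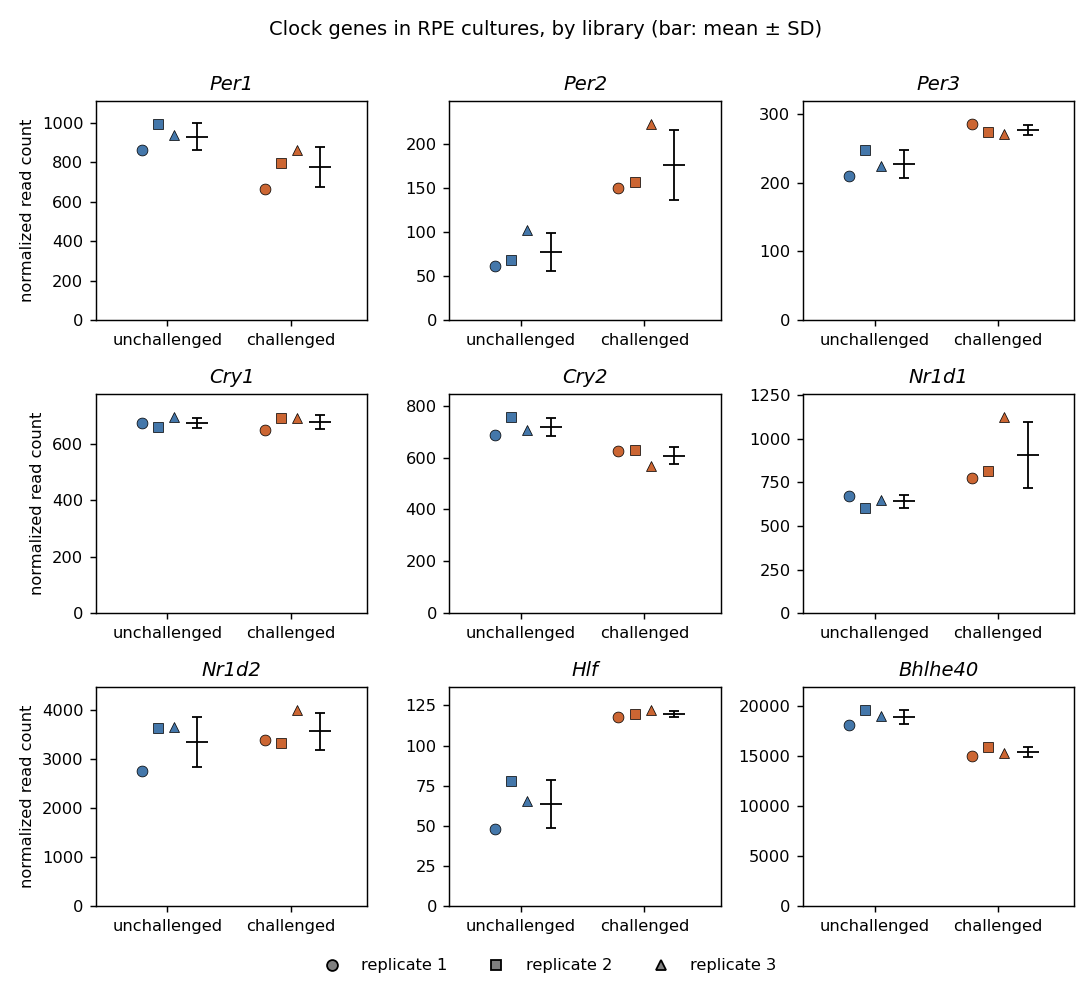
Normalized read count (y axis, from 0) of each of the 9 clock genes in the 3 unchallenged (blue) and 3 challenged (orange) libraries, with symbols for replicates and a bar for the mean ± SD. Challenged Per2 values of 150.6 to 222.7 lie above all unchallenged ones, challenged Hlf values sit between 117.9 and 121.9, and Cry1 stays between 648.5 and 693.4.

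Per2, a core repressor that is also an acute response gene, stood at 61.7, 68.1 and 102.1 normalized counts without POS (replicates 1, 2 and 3) and at 150.6, 157.3 and 222.7 with POS. Values below are given in the same order of replicates. The lowest challenged library lay above the highest unchallenged one, and replicate 3 was the highest of each group. The means were 77.3 ± 21.7 and 177 ± 39.9 (3 libraries each), which is 1.20 ± 0.24 (SE) as a log2 fold change. These values rested on 62 to 221 reads per library, and 62 reads carry a counting error of about 12.7%. Leaving out 1 library at a time moved the log2 fold change between 1.02 and 1.41. The authors' deposited table gives 0.75, while edgeR and DESeq2 on the recovered reads gave 1.198 and 1.196. The reason for the smaller deposited value was not tested.

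Per1, the paralog of Per2 that is most often described as the fast responder to outside signals, went the other way. It had 861.3, 993.5 and 939.6 normalized counts unchallenged and 665.7, 795.8 and 864.7 challenged. Challenged replicate 3 lay just above unchallenged replicate 1, so the groups overlapped, and challenged replicate 1 was the lowest of the 6. The means were 931 ± 66.4 and 775 ± 101 (log2 fold change -0.27 ± 0.11), and without challenged replicate 1 the log2 fold change was -0.17. Per3, a paralog with a weaker role in keeping the rhythm, had 209.1, 248.1 and 224.1 unchallenged and 284.8, 273.0 and 271.1 challenged. All challenged values of Per3 were above all unchallenged ones, by a small margin (227 ± 19.7 and 276 ± 7.43, log2 fold change 0.29 ± 0.11). Against unchallenged replicate 2 alone, the library without the interferon signal, the Per3 log2 fold change was 0.15. In the same comparison those of Per1 and Per2 were larger in size than with all libraries, at -0.37 and 1.34.

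Within each library, the balance of the 3 Per genes can be read as a ratio per kb of exon, from exon lengths in GENCODE M21. The Per2 to Per1 ratio was 0.0689, 0.0660 and 0.104 in the unchallenged libraries and 0.217, 0.190 and 0.248 in the challenged ones. The Per3 to Per1 ratio was 0.142, 0.146 and 0.140 unchallenged and 0.251, 0.201 and 0.184 challenged. Neither ratio overlapped between groups, and Per1 remained the most abundant of the 3 per kb in every library. These ratios, and those of other pairs below, restate values of members picked with this contrast in view. No share over other gene pairs was computed, so a lack of overlap in a ratio adds nothing to the separate values.

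The Per1 and Per3 promoters are shown because the clock elements in them differ. RefSeq windows of the build GRCm38.p6 were available for 7 of the 9 genes, not for Per2 and Bhlhe40. The 250 bases before each start were searched on both strands for the E-box CACGTG, the D-box (TTATGNAA or TTACGNAA, bound by HLF, DBP, TEF and their antagonist NFIL3), the cAMP response element TGACGTCA and AGGTCA, the core of ROR and REV-ERB elements. The matches printed below did not overlap each other. Capitals mark the matches in the lines below, each printed in the direction of the gene, at chr11:69098699-69098948 on the plus strand for Per1 and chr4:151044666-151044915 on the minus strand for Per3.
Per1: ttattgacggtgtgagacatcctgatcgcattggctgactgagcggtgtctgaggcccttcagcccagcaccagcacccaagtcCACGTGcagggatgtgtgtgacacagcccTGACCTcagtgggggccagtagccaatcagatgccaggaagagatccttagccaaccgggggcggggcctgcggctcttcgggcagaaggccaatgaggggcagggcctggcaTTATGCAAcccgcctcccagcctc
Per3: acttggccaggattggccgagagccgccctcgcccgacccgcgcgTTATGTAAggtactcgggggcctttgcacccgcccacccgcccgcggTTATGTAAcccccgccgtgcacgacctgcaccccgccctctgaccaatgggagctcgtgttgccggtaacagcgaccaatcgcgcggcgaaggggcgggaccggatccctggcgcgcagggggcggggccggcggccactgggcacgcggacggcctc
The Per1 window held an E-box that begins 166 bases before the start, the AGGTCA core 137 bases before it (on the other strand, printed as TGACCT) and a D-box 24 bases before it. A further Per1 start had none of the motifs in its window. The Per3 window held a pair of D-boxes, 205 and 158 bases before the start, and no CACGTG. The D-box spelling TTATGNAA was found in 2 of the 8 windows of these genes and in 3.07% of all 32851 windows, and CACGTG in 2 and in 6.02%. TTACGNAA was found in 0 and in 0.54%, and AGGTCA in 2 (Per1 and Nr1d2) and in 14.02%.

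Both Cry genes encode flavoproteins that repress CLOCK and ARNTL, Cry1 being the stronger repressor. Cry1 had 672.1, 658.1 and 693.4 normalized counts unchallenged and 648.5, 689.3 and 692.4 challenged. Its highest library was only 1.07 times its lowest, the narrowest range of the 9 genes, and the groups overlapped (675 ± 17.8 and 677 ± 24.5, log2 fold change 0.004 ± 0.073). Cry2 had 688.1, 754.9 and 706.7 unchallenged and 624.9, 629.2 and 568.4 challenged. All challenged values of Cry2 were below all unchallenged ones (717 ± 34.5 and 608 ± 33.9, log2 fold change -0.24 ± 0.08). The Cry1 to Cry2 ratio per kb was 1.85, 1.65 and 1.86 unchallenged and 1.96, 2.07 and 2.30 challenged, with no overlap. A noncoding transcript on the opposite strand, D930015M05Rik, shares 4.7% of the exon bases of Cry2, and no source used here says whether counting used strand.

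The Cry1 promoter is shown as the other window with an E-box, at chr10:85185055-85185304 on the minus strand, with the E-box in capitals.
Cry1: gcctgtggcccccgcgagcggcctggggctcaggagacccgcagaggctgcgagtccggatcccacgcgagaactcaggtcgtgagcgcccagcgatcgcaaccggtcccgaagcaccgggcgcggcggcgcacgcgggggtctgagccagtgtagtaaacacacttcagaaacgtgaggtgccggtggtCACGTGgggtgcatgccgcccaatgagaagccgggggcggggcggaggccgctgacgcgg
Its CACGTG begins 60 bases before the start. Per1 and Cry1, the members whose windows hold this E-box, stood at log2 fold changes of -0.27 and 0.004, and a match is a description of these letters only.

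Nr1d1 and Nr1d2 encode heme-binding nuclear receptors that repress Arntl, and Nr1d1 is a direct E-box target with a large daily swing. Nr1d1 had 674.1, 602.7 and 649.0 normalized counts unchallenged and 778.2, 816.1 and 1123 challenged. The groups did not overlap, and challenged replicate 3 stood well above the other 2 challenged libraries. The means were 642 ± 36.2 and 906 ± 189 (log2 fold change 0.48 ± 0.14), and without challenged replicate 3 the log2 fold change was 0.31. Exons of Nr1d1 and of the thyroid hormone receptor gene Thra overlap on opposite strands over 263 bases, 8.5% of the exon bases of Nr1d1. Thra stood at 628 ± 63.4 and 685 ± 44.4 (log2 fold change 0.13 ± 0.10), so part of the Nr1d1 value is uncertain if strand was not used.

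Nr1d2 had 2750, 3621 and 3643 unchallenged and 3379, 3319 and 3989 challenged, so the groups overlapped (3338 ± 509 and 3562 ± 371, log2 fold change 0.10 ± 0.13). Unchallenged replicate 1 was its lowest library, and without it the sign turned (-0.03). The Nr1d1 to Nr1d2 ratio per kb was 0.431, 0.293 and 0.313 unchallenged and 0.405, 0.432 and 0.495 challenged, which overlapped.

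Hlf encodes a PAR bZIP factor that carries the rhythm to output genes through D-boxes. It had 47.8, 77.7 and 65.5 normalized counts unchallenged and 117.9, 119.4 and 121.9 challenged. The groups did not overlap, and the challenged libraries lay close together, with a coefficient of variation of 1.71% against 23.6% unchallenged. The means were 63.7 ± 15.0 and 120 ± 2.05 (log2 fold change 0.93 ± 0.20). Hlf rested on 48 to 130 reads per library, with a counting error of about 14.4% at 48 reads. Even the 202 reads of Per3 in its lowest library carry about 7.04%. The challenged spread of 1.71% is thus smaller than counting error alone, and nothing is read from it. Against unchallenged replicate 2 alone the log2 fold change was 0.62. The Hlf promoter is shown because it was the only window of the 8 with the full cAMP response element, which 1.55% of all windows hold. It lies at chr11:90390918-90391167 on the minus strand, and the element in capitals begins 9 bases before the start. The bases after this start were not found in a GENCODE M21 transcript of Hlf, unlike those of the Per1, Per3 and Cry1 windows shown. The distance to the Hlf start is therefore less certain.
Hlf: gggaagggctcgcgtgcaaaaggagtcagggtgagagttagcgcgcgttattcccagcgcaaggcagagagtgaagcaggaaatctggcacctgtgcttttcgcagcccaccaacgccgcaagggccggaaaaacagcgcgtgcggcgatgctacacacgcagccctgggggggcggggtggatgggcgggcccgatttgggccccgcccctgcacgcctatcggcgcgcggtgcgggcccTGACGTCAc

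Bhlhe40 (also called DEC1) encodes a bHLH repressor that competes for E-boxes and responds to many stimuli. It had 18105, 19531 and 18987 normalized counts unchallenged and 14971, 15896 and 15264 challenged. All challenged values were below all unchallenged ones, by about 0.815 times on the means (18874 ± 720 and 15377 ± 473, log2 fold change -0.30 ± 0.07). With quantile normalization in place of the authors' scaling, that log2 fold change was -0.16. An antisense gene, 0610040F04Rik, shares 2.5% of the exon bases of Bhlhe40.

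**Figure D2:**
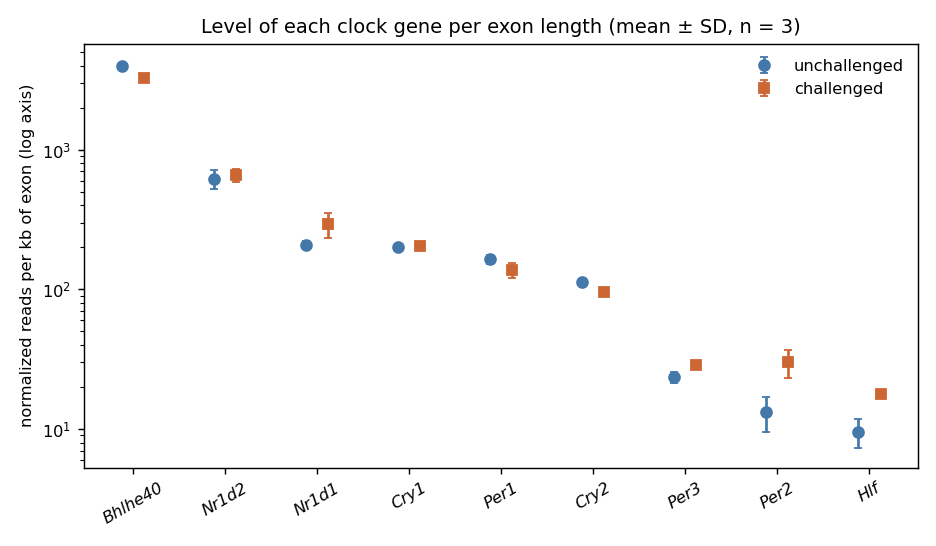
Mean level ± SD (3 libraries per group) of the 9 clock genes in normalized reads per kb of exon, on a log axis, ordered by the unchallenged level. Bhlhe40 is the highest in both groups, at 4012 and 3268 per kb, and Hlf the lowest, at 9.53 and 17.9.

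Per kb of exon, Bhlhe40 was the most abundant clock gene in unchallenged cultures, at 4012 ± 153 normalized reads per kb, followed by Nr1d2 at 617 ± 94.2. Nr1d1 (209 ± 11.8) and Cry1 (202 ± 5.32) came next and differed by less than the sum of their SDs. Below them stood Per1 at 165 ± 11.8, Cry2 at 113 ± 5.46, Per3 at 23.6 ± 2.05 and Per2 at 13.2 ± 3.70. Hlf, at 9.53 ± 2.25 per kb, was within the summed SDs of Per2. In challenged cultures Per2, at 30.2 ± 6.81 per kb, stood beside Per3 at 28.8 ± 0.773, and these were the only neighbours of that order within their summed SDs. The order of the other 7 genes was the same in both groups.

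The genes lie apart in the mouse genome, by the RefSeq spans of GRCm38.p6. On chromosome 11 are Per1 (Entrez Gene 18626, 69095108 to 69109965), Hlf (217082, 90336535 to 90390917) and Nr1d1 (217166, 98767932 to 98775377). Per2 (18627) lies on chromosome 1 from 91415977 to 91459351, Cry2 (12953) on chromosome 2 from 92403646 to 92434085 and Per3 (18628) on chromosome 4 from 150997018 to 151044707. Bhlhe40 (20893) lies on chromosome 6 from 108660629 to 108666925, Cry1 (12952) on chromosome 10 from 85131700 to 85185054 and Nr1d2 (353187) on chromosome 14 from 18204056 to 18239106. The table has 1 row for each of these genes.

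The rest of the clock and its inputs and outputs were read from a list of 52 genes, of which 40 were in the table. In limma 0 of the 40 were called (0.0956% of all genes were), and edgeR called 0. At an unadjusted p under 0.05 stood 6 of the 40, beside the 11.5% of all genes. The authors' deposited table listed 1 as higher (Id2, beside 0.871% of genes) and 1 as lower (Nampt, beside 1.68%), and DESeq2 on recovered reads called the same pair. All challenged libraries lay above all unchallenged ones in 7 of the 40 (9.56% of all genes) and below them in 3 (10.4%). Nothing is read from these counts. The median log2 fold change was 0.03, with 21 above 0 (51.7% of all genes were) and 19 below.

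**Figure D3:**
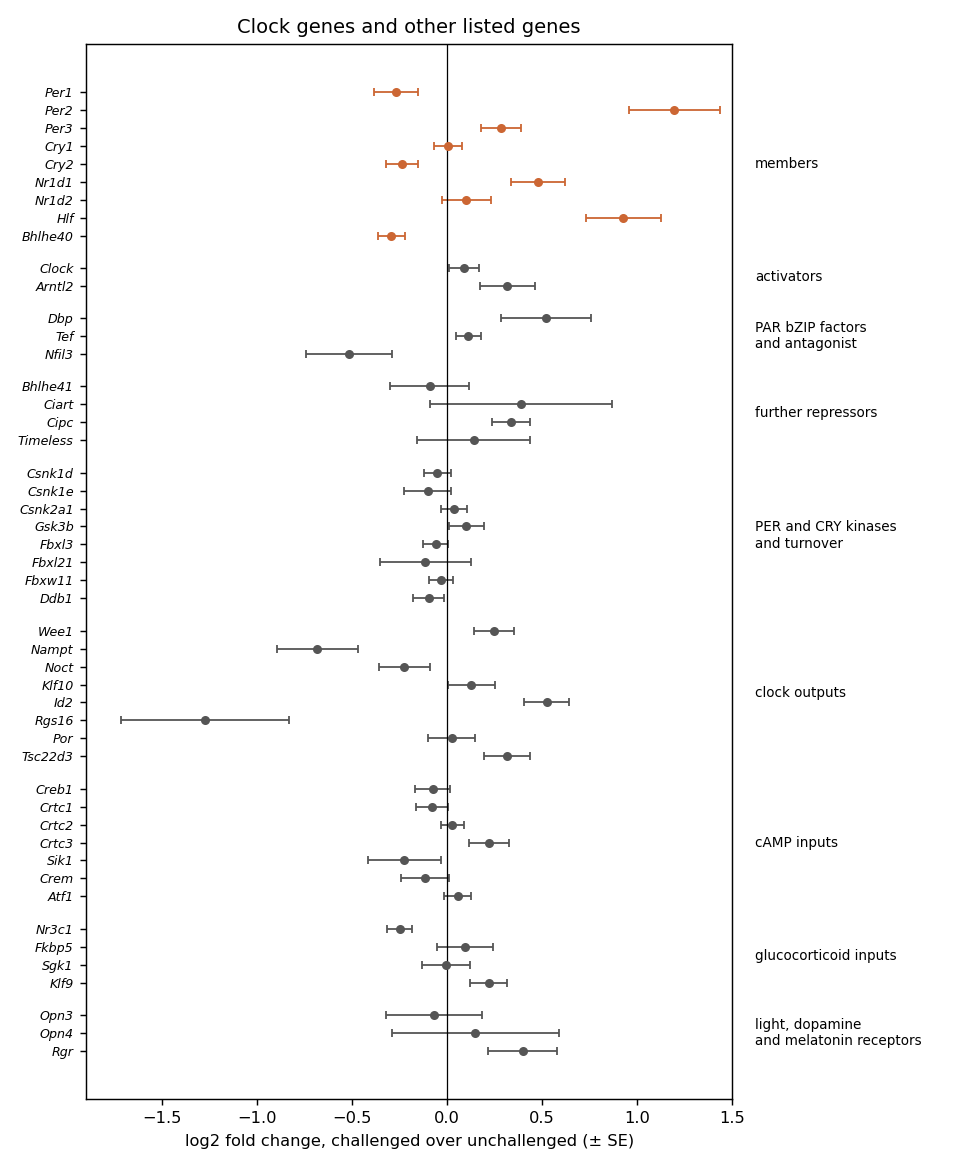
Log2 fold change, challenged over unchallenged, ± SE from limma for the 9 clock genes (orange) and other listed genes (grey), grouped by role. Per2 at 1.20 and Hlf at 0.93 lie farthest to the right, and Rgs16 at -1.27 farthest to the left.

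Clock, the partner of ARNTL, stood at 3220 ± 252 and 3421 ± 131 (log2 fold change 0.09 ± 0.08, limma adjusted p = 0.67). Arntl2, a paralog of Arntl, was low, with 66.7, 69.2 and 76.5 normalized counts unchallenged and 93.4, 80.5 and 91.7 challenged. Its groups did not overlap, but it was not called (log2 fold change 0.32 ± 0.15, limma adjusted p = 0.463). Npas2, which can stand in for Clock, was not analysed here.

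The relatives of Hlf are the PAR bZIP genes Dbp and Tef, and Nfil3 encodes the repressor that binds the same D-boxes. Dbp had 40.8, 51.1 and 58.8 normalized counts unchallenged and 70.7, 56.4 and 92.7 challenged, with challenged replicate 2 inside the unchallenged range (log2 fold change 0.52 ± 0.24, limma adjusted p = 0.458), and without challenged replicate 3 the log2 fold change was 0.34. Tef stood at 1579 ± 90.2 and 1705 ± 18.6, without overlap but not called (0.11 ± 0.07, limma adjusted p = 0.548). The Hlf to Tef ratio per kb was 0.0380, 0.0571 and 0.0466 unchallenged and 0.0810, 0.0819 and 0.0853 challenged, with no overlap. Nfil3 had 1240, 1369 and 1299 unchallenged and 683.9, 818.9 and 1345 challenged (-0.52 ± 0.23, limma adjusted p = 0.452). Challenged replicates 1 and 2 were far below every unchallenged library for Nfil3, and challenged replicate 3 was among them. Without that library the Nfil3 log2 fold change was -0.80 (limma adjusted p = 0.0724). Without challenged replicate 1 it was -0.31 (limma adjusted p = 0.659).

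Of the further repressors, Ciart (also called Chrono) was the gene in which 1 library stood out most. It had 83.6, 89.4 and 66.6 normalized counts unchallenged and 73.5, 62.9 and 241.9 challenged (log2 fold change 0.39 ± 0.48, limma adjusted p = 0.777). Challenged replicate 3 was 3.55 times the mean of the other 2 challenged libraries, and without it the log2 fold change was -0.22. Without challenged replicate 1 or 2 the Ciart log2 fold change was 0.634 or 0.745. Cipc, whose product inhibits CLOCK, had 1032, 1098 and 1194 unchallenged and 1404, 1254 and 1550 challenged, without overlap (0.34 ± 0.10, limma adjusted p = 0.323). Bhlhe41 (DEC2), the paralog of Bhlhe40, stood at 391 ± 96.4 and 365 ± 76.1 (-0.09 ± 0.21, limma adjusted p = 0.89).

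**Figure D4:**
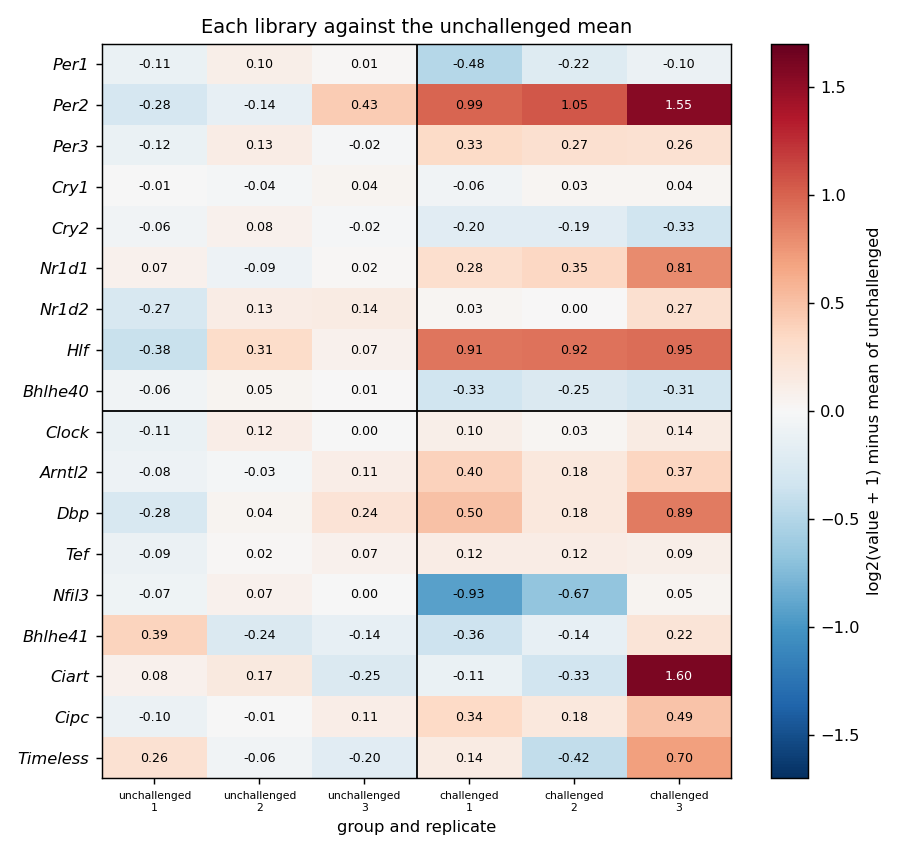
Each library's log2(value + 1) minus the mean of the 3 unchallenged libraries, by gene (rows, the 9 clock genes above the line and other core clock genes below) and library (columns), with red for above and blue for below that mean. Challenged replicate 3 shows the highest values of Per2 (1.55), Nr1d1 (0.81), Dbp (0.89) and Ciart (1.60), and Nfil3 is low in challenged replicates 1 and 2 (-0.93 and -0.67).

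On the first principal component of all genes (51.3% of the variance), unchallenged replicates 1 and 3 stood at -36.8 and -26.2. Unchallenged replicate 2 stood at 12.1, within the challenged range of 6.88 to 26.3. On the second component (25.9%), challenged replicate 3 stood apart, at 35.9 against -14.9 to -2.45 in the other 5 libraries. It was the highest of the 6 libraries for 4 of the 9 members (Per2, Nr1d1, Nr1d2 and Hlf), or 44.4%, against 31.0% of all genes. Relative to the mean of challenged replicates 1 and 2, it held 1.45 times as much Per2, 1.41 times as much Nr1d1 and 1.46 times as much Dbp, with a median of 1.00 over all genes. At 1.4 times or more stood 2 of the 9 members (22.2%) and 7.98% of all genes, and nothing particular to the clock genes is read from these shares. Cry1, Per3, Hlf and Bhlhe40 stood at 1.04, 0.972, 1.03 and 0.989 times that mean. This library also had the lowest summed RPE markers (30967) and the smallest share of reads in its 10 most abundant genes, 8.23% against 10.73% to 10.99% in the other 5 libraries. The part of these features in the clock values was not tested.

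Among the kinases and turnover factors of PER and CRY, 8 of 10 listed genes were in the table. Their log2 fold changes lay between -0.12 and 0.10, and 0 were called, nor was any at an unadjusted p under 0.05. Ddb1, which encodes a subunit of a ubiquitin ligase, stood at 30332 ± 1210 and 28335 ± 804, without overlap. The casein kinase genes Csnk1d and Csnk1e, whose products phosphorylate PER, stood at 8416 ± 308 and 8122 ± 452 and at 2528 ± 348 and 2351 ± 284 (limma adjusted p of 0.652, 0.796 and 0.768 in that order).

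All 8 listed output genes were in the table. Id2, an inhibitor of bHLH factors, had 1693, 1894 and 1808 normalized counts unchallenged and 2894, 2773 and 2153 challenged (log2 fold change 0.53 ± 0.12, limma adjusted p = 0.24). Without challenged replicate 3 it was called (0.66, limma adjusted p = 0.0459). The authors' deposited table also lists it as higher (adjusted p = 0.00885). Nampt, the rate-limiting enzyme of NAD salvage and an E-box target, had 3764, 2361 and 4187 unchallenged and 1988, 1884 and 2400 challenged (-0.68 ± 0.21, limma adjusted p = 0.344). It was higher in unchallenged replicates 1 and 3, those with the interferon signal, than in unchallenged replicate 2, which lay within the challenged range. The authors' deposited table lists Nampt as lower (adjusted p = 0.0321), and limma called it without unchallenged replicate 2 (-0.93, adjusted p = 0.0296). Against that library alone the log2 fold change was -0.18. Rgs16, named after its values were seen, was also lowest of its group in unchallenged replicate 2, with 2116, 529.2 and 1194 unchallenged and 415.4, 438.6 and 517.0 challenged (limma adjusted p = 0.374). The outputs with the most reads, Noct (a rhythmic phosphatase gene) and Por, stood at 8838 ± 1322 and 7547 ± 956 and at 5921 ± 684 and 6026 ± 827 (limma adjusted p = 0.546 and 0.963).

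Of the inputs to Per1, all 7 listed genes of the cAMP pathway were in the table. Their log2 fold changes lay between -0.23 and 0.22, and 0 were called, nor was any at an unadjusted p under 0.05. Sik1, a kinase gene that CREB induces and that restrains it, stood at 2495 ± 448 and 2150 ± 489, and Crtc2, a CREB coactivator gene, at 1505 ± 15.8 and 1534 ± 44.1 (limma adjusted p = 0.665 and 0.89). Of 5 glucocorticoid genes, 4 were in the table and 0 called, with 1 (Nr3c1) at an unadjusted p under 0.05. Nr3c1, the glucocorticoid receptor gene, had 4797, 5172 and 4890 unchallenged and 4156, 4366 and 3982 challenged, without overlap (log2 fold change -0.25 ± 0.07, limma adjusted p = 0.283). Sgk1, a kinase gene that the receptor induces, stood at 4591 ± 408 and 4597 ± 713 (limma adjusted p = 0.991).

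Profiles most like those of the members were sought for the 2 genes whose highest and lowest libraries differed at least 2-fold, Per2 (3.61-fold) and Hlf (2.55-fold). Likeness was the root mean square difference between centred log2 profiles over the 6 libraries, among genes with a mean of at least 100. Nearest to Per2 were Cep85l (0.20 log2 units), Zfp827 (0.22) and Dhrs3, a retinaldehyde reductase gene (0.29), against a size of 0.66 for the Per2 profile itself. Zfp827 had 282.8, 264.1 and 343.9 normalized counts unchallenged and 660.3, 473.8 and 738.7 challenged. Nearest to Hlf were Pag1 (0.12), Angptl7 (0.13) and Palmd (0.15), against 0.51 for Hlf itself. Pag1, which encodes a membrane adaptor, had 139.4, 213.0 and 201.9 unchallenged and 292.1, 292.4 and 309.4 challenged, with unchallenged replicate 1 the lowest, as for Hlf. All of these shapes follow the split of the groups, and they say nothing of shared control.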

How the data were processed

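Poly(A) RNA of 3 challenged and 3 unchallenged RPE cultures was sequenced, each library on 2 lanes, per the labels' protocols. GSNAP, DESeq2 and mm10 are named, without versions, in the submitters' processing notes. The deposited table gives, per the file headers, the authors' log2 fold change, its error, a Wald score and p-values. Its library columns are a normalized signal that the authors made. By their values they are reads divided by a size factor, with 100% of values within 0.001 of a whole number of reads in each library.

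As these are scaled values, limma 3.58.1 (R 4.3.3) with a trend was run on log2(value + 1) for all 12556 genes (mean of at least 10), with 1 term for group and p-values adjusted by Benjamini-Hochberg. edgeR 4.0.16 and DESeq2 1.42.0 on recovered reads were alternatives, and scripts were tested on simulated data. P-values measure the spread between these cultures. The members and lists were chosen with earlier results of these data known. Named genes were all members, the listed genes that passed in limma or in the authors' deposited table, 9 fixed core genes where present, the 2 most abundant per list and the 3 profiles most like a member. The values of 1 listed gene are not reported here. A ratio of Nr1d1 to Arntl and a comparison of proteins were planned and not made. Exon lengths came from GENCODE M21, and 12346 identifiers matched RefSeq genes of GRCm38.p6, the build mm10 denotes.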

Additional observations from a re-analysis of the deposited data

How the results depend on the processing

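The number of genes called, 8 higher and 4 lower, depended on the libraries and the test. Leaving out 1 library at a time gave 1 to 12 higher and 0 to 108 lower, the last without unchallenged replicate 2. The authors' deposited table gave 105 and 203, and DESeq2 on recovered reads 105 and 224. With unchallenged replicates 1 and 3 left out, 0 and 0 were called, with 1 unchallenged library that was taken to vary like the challenged ones. Of the clock members, 0 were called in all limma alternatives and in edgeR, and 3 in the authors' deposited table and in DESeq2. Of the 40 other clock genes, 2 were called in each of the latter, and 0 to 2 when 1 library was left out (Nampt and Rgs16 without unchallenged replicate 2, Id2 without challenged replicate 3). Their median moved from 0.025 to 0.059 with quantile normalization, where the median of all genes was 0.03. The sign of Per1, Per2, Per3, Cry2, Nr1d1, Hlf and Bhlhe40 was the same in every alternative run. Against unchallenged replicate 2 alone, the log2 fold changes of Per3 and Hlf were smaller in size (0.154 and 0.617). Those of Per1, Per2, Cry2, Nr1d1 and Bhlhe40 were larger in size (-0.366, 1.340, -0.315, 0.567 and -0.345 in that order). Cry1 and Nr1d2 stood at 0.040 and -0.029 there. Cry1 changed sign in 4 of 16, between -0.013 and 0.04, and Nr1d2 in 2. Without unchallenged replicate 1, Csnk1e stood at 0.006. Bhlhe41 changed sign in 3 (between -0.25 and 0.149), Clock in 1 and Ciart in 1. Hlf and Dbp have means under 100 and have no value under that minimum. The cause of these changes was not tested.

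The replicate numbers were not taken as pairs. Deviations from the group means of same-numbered libraries correlated at -0.351, 0.172 and 0.173. With the replicate number as a block, 1 gene was called higher and 0 lower, and 0 clock genes. Among the 9 members, Hlf and Per2 had the fewest reads, 48 and 62 in their lowest libraries. Of the other clock genes, Opn4 had 15, Fbxl21 30 and Dbp 41.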

Other observations

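The cultures also held transcripts of light-sensing proteins. Of 9 listed receptors for light, dopamine and melatonin, 3 were in the table, and 0 were called. Rgr, an opsin of RPE and Müller cells, had 194.2, 234.3 and 312.8 normalized counts unchallenged and 353.7, 314.6 and 293.3 challenged, which overlapped (log2 fold change 0.40 ± 0.18, limma adjusted p = 0.461). Opn3, the encephalopsin gene, stood at 97.1 ± 19.4 and 93.7 ± 25.6 (limma adjusted p = 0.938). Opn4, the melanopsin gene, had 14.9 to 44.7 normalized counts per library. Opn5, the dopamine receptor genes and the melatonin receptor genes were not analysed here.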
